A study of Mus musculus with 45 samples.

Results

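Islet RNA of NZO/HlLtJ mice, an obese inbred strain prone to diabetes, was compared with that of C57BL/6J mice, a common laboratory strain, on a diet with 44% fat. The comparison held every library whose title gives the diet with 44% fat and either strain, which made 7 NZO/HlLtJ libraries (4 female, 3 male) and 8 C57BL/6J libraries (4 female, 4 male), 15 of the 45 libraries of the series. Sex, read from the same titles, was a blocking factor, and 19251 genes passed the expression filter. The 15 libraries share a wild-type genotype and no treatment besides the diet, a high fat, high sugar chow with fiber given from 6 weeks of age until collection at 16 weeks. Libraries of the same strains on the control diet with 10% fat (8 of C57BL/6J and 7 of NZO/HlLtJ) entered only the comparison between diets. Whether the libraries of a group came from different mice is not stated in the labels, and p-values therefore describe the spread among libraries.

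Pancreatic islets are clusters of hormone-secreting cells, in which beta cells make insulin, alpha cells glucagon and delta cells somatostatin. A mature beta cell takes up and phosphorylates glucose, closes a potassium channel as ATP rises, lets calcium in and releases insulin granules, and it keeps a set of genes that are common in other tissues repressed. In NZO mice obesity and insulin resistance place a large secretory demand on the beta cells, and males are known to become diabetic more often than females. Islets also hold endothelial cells, pericytes, fibroblasts and macrophages, and islet preparations carry acinar and duct cells of the exocrine pancreas.

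Depth was 71.5 to 97.8 M counts per library, so that 1 CPM (counts per 1e+06 counts, scaled with TMM factors) rested on 63.5 to 115 counts. The labelled tissue held up, since Ins1 and Ins2 together took 3.92 to 13.8% of all counts, and the sex markers Xist and Ddx3y matched the labels, with a raised Xist in NZO/HlLtJ male replicate 3 (15.9 CPM, at most 1.49 CPM in the other males). The C57BL/6J female replicate 2 carried transcripts that mark NZO/HlLtJ, at a median of 1.88% of the NZO/HlLtJ level over 12 markers (0.126 to 0.571% in the other C57BL/6J libraries). The NZO/HlLtJ male replicate 3 carried transcripts that mark CAST/EiJ, another strain of the series, at 1.03% over 20 markers (at most 0.11% in the others). Leaving both libraries out gave 11767 called genes where 12271 were called with them. Genes of the acinar list took 0.291 to 19.3% of the counts in C57BL/6J and 4.66 to 22.4% in NZO/HlLtJ, and no defining marker of that list was at 0. Sample codes begin with 76, 80 or 89, which the labels do not explain. Every NZO/HlLtJ library had a C57BL/6J library of the same sex and series, with females in series 76 and 89 and males in 76 and 80. Each of these 4 strata held 1 C57BL/6J library and 1 or 2 NZO/HlLtJ libraries. In them 91.5 to 96.4% of the called genes kept their sign, and 9908 of 12271 (80.7%) kept it in all 4. The strata reuse the libraries that made the calls, so this is a description. With the series as a factor 11910 genes were called.

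On 44% fat the strains differed at 12271 of 19251 genes (63.7%; edgeR quasi-likelihood test, Benjamini-Hochberg adjusted p under 0.05), with 6185 higher (32.1%) and 6086 lower (31.6%) in NZO/HlLtJ. A change of at least 2-fold was called at 2965 genes higher (15.4%) and 2312 genes lower (12%). The median log2 fold change over all genes was -0.02. Counts of list members called higher or lower on 44% fat below stand beside 32.1% and 31.6% of all genes. At 2362 genes (12.3%) every NZO/HlLtJ library lay above every C57BL/6J library, and at 2352 genes (12.2%) every one lay below. With library totals alone in place of TMM the median moved to -0.217 and the calls split into 4363 higher and 7847 lower, so small changes below are relative to the TMM scaling. Because bulk RNA was measured, fewer cells of a type and less RNA per cell cannot be told apart at any gene below.

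The insulin genes did not separate the strains. Ins2 was at 29420, 68540 and 96700 CPM (lowest, median, highest) in NZO/HlLtJ and at 50370, 65130 and 76950 CPM in C57BL/6J, and the log2 fold change was 0.01 (adjusted p = 0.963, edgeR). Ins1 gave 0.28 (adjusted p = 0.327, edgeR). The NZO/HlLtJ libraries held both the highest and the lowest insulin levels. By sex, Ins1 rose in NZO/HlLtJ females (log2 fold change 0.78, adjusted p = 0.0179, edgeR) and gave -0.32 in males, but the difference between the sexes was not called (adjusted p = 0.0623, edgeR). Ins1 and Ins2 took 10.9 to 13.8% of the counts in the NZO/HlLtJ females, 3.92 to 8.26% in the males and 7.68 to 12.5% in C57BL/6J. Iapp, which encodes islet amyloid polypeptide and is co-secreted with insulin, rose by 0.53 (SE 0.18, adjusted p = 0.016, edgeR).

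Of 19 genes of insulin production and processing, 7 rose and 1 fell, beside 32.1% and 31.6% of all genes, so the share that rose was near that of all genes. Granule proteins had the largest rises among the 7. Vgf, which encodes a secretory granule protein and peptide precursor, was at 79.4, 180 and 367 CPM in NZO/HlLtJ and at 14.7, 20.1 and 31.8 CPM in C57BL/6J. The groups did not overlap, the fitted level was 9.60-fold higher in NZO/HlLtJ, and the log2 fold change was 3.26 (SE 0.28, adjusted p = 2.69e-07, edgeR). Chgb, the granule matrix protein chromogranin B, rose by 1.69 (SE 0.19, adjusted p = 2.65e-06, edgeR), also without overlap. Scg5, a chaperone of the prohormone convertase PC2, rose by 1.55. The signal peptidase subunit Sec11c (1.07) rose too, while the convertases Pcsk1 (0.08) and Pcsk2 (0.14) were not called. The member that fell was Slc30a8, the zinc transporter of insulin granules, at 102, 314 and 480 CPM in NZO/HlLtJ and 643, 717 and 894 CPM in C57BL/6J. Its groups did not overlap (log2 fold change -1.54, SE 0.26, adjusted p = 0.000116, edgeR).

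Genes that sense glucose and incretins were lower in NZO/HlLtJ. Of 24 genes of glucose sensing and beta cell maturity 17 fell and 1 rose, with a median log2 fold change of -0.76 (-0.32 in females, -1.14 in males). Slc2a2, which encodes the GLUT2 transporter through which mouse beta cells take up glucose, was at 101, 268 and 525 CPM in NZO/HlLtJ and 534, 781 and 930 CPM in C57BL/6J. The groups stood just apart, the fitted level was 3.06-fold higher in C57BL/6J, and the log2 fold change was -1.61 (SE 0.29, adjusted p = 0.000219, edgeR). Trpm5, a calcium-activated cation channel that shapes glucose-induced electrical activity, was at 7.88, 44.2 and 70.2 CPM against 109, 126 and 148 CPM. It had no overlap and a log2 fold change of -2.15 (SE 0.32, adjusted p = 4.8e-05, edgeR).

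Gipr, the receptor of the incretin GIP, fell by 1.92 on the log2 scale, from 54.6, 71.5 and 114 CPM in C57BL/6J to 7.12, 26.3 and 41 CPM in NZO/HlLtJ. Glp1r, the receptor of the incretin GLP-1, changed by -0.96, and Kcnj11 and Abcc8, the pore and the sulfonylurea receptor of the ATP-sensitive potassium channel, by -0.77 and -0.41. Ucn3, a maturity marker peptide of beta cells, was at 27.6, 162 and 246 CPM against 222, 343 and 386 CPM and fell by 1.41 (SE 0.33, adjusted p = 0.0016, edgeR), with overlapping groups. The activity-regulated factor Npas4 (-2.33) and the imprinted gene Nnat (-2.21), whose product aids insulin processing, fell as well. Trpm2, another cation channel, rose by 0.55.

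Beta cell transcription factors fell in 13 of 20 cases and rose in 3, with a median of -0.48, beside 31.6% lower and 32.1% higher over all genes. Isl1, a factor that all islet endocrine cells need, was at 19.8, 36.6 and 48.8 CPM in NZO/HlLtJ and at 90.7, 104 and 140 CPM in C57BL/6J. The groups lay well apart, with a log2 fold change of -1.61 (SE 0.14, adjusted p = 3.22e-07, edgeR). Mlxipl, which encodes the glucose-responsive factor ChREBP, fell by 1.35, and Neurog3, the endocrine progenitor factor, by 1.70. Nkx6-1, which maintains beta cell identity, changed by -0.79 (adjusted p = 0.0106, edgeR). Pdx1, an activator of the insulin gene, was not called (0.04), nor was Mafa (0.73, adjusted p = 0.076, edgeR), whose log2 fold change was 1.54 in females and -0.27 in males. Foxa1 (2.06), Hnf4a (0.81) and Bach2 (0.74) rose, of which Foxa1 averaged under 1 CPM in both strains. With the acinar level as a covariate the calls of this list dropped to 7 lower and 1 higher.

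**Figure D1:**
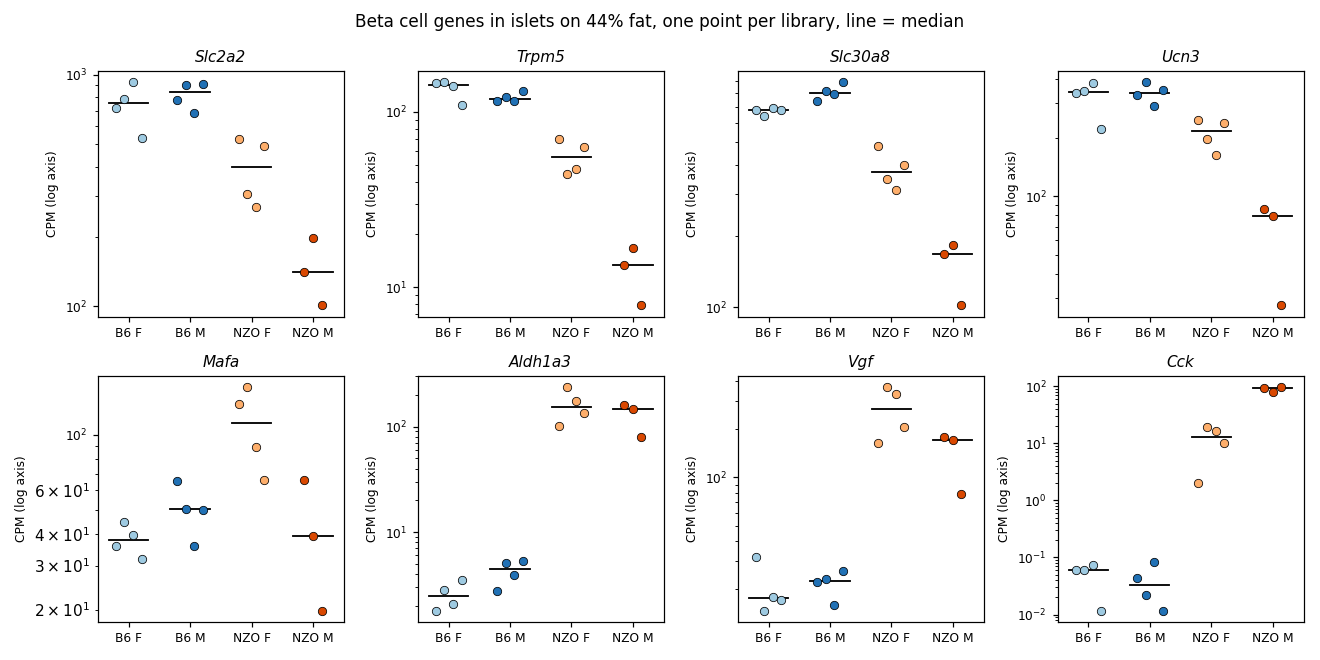
Levels of 8 beta cell genes in CPM on log axes, with 1 point per library and a line at the group median; B6 is C57BL/6J, NZO is NZO/HlLtJ, F female and M male. Slc2a2, Trpm5 and Slc30a8 lie lower in every NZO/HlLtJ library, with the males lowest, while Aldh1a3, Vgf and Cck lie above every C57BL/6J library.

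Genes that mature beta cells normally keep repressed rose in 23 of 25 cases and fell in none, with a median log2 fold change of 1.34 (0.82 in females, 2.04 in males) against -0.02 over all genes. At 2 of the 25 every NZO/HlLtJ library lay above every C57BL/6J library, which was the case at 12.3% of all genes. Parp3, a DNA repair enzyme, was at 3.57, 4.74 and 14.4 CPM against 1.01, 1.33 and 1.63 CPM and rose by 2.44. Oat, ornithine aminotransferase, was the other, at 31.9, 36.3 and 82.9 CPM against 11.4, 17.8 and 21.3 CPM. Ldha, lactate dehydrogenase A, was at 17.1, 23.5 and 92.3 CPM against 9.85, 13.4 and 19.7 CPM and rose by 1.24, with overlap. Tgm2 (2.51), Mgst1 (2.37) and Maf (2.35) showed the largest other rises. Several of these genes, such as Pdgfra, which is also on the fibroblast list, are abundant in other cells of the preparation. Macrophage and fibroblast marker levels moved in the same direction (given further on), and their part in the rise was not tested.

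Markers linked to beta cell dedifferentiation and progenitors rose in 11 of 15 cases and fell in 2. Aldh1a3, which makes retinoic acid and marks failing beta cells, was at 78.8, 146 and 236 CPM in NZO/HlLtJ and at 1.8, 3.2 and 5.3 CPM in C57BL/6J. No library overlapped, the fitted level was 44.7-fold higher, and the log2 fold change was 5.48 (SE 0.3, adjusted p = 4.02e-09, edgeR). Cck, the gut hormone cholecystokinin that obese mouse islets also make, was at 2.03, 19.1 and 96.8 CPM against 0.0117, 0.0518 and 0.084 CPM. All C57BL/6J libraries together held 34 counts of Cck, and the log2 fold change was 9.70 (SE 0.63, adjusted p = 2.45e-08, edgeR). Gast, the related hormone gastrin, rose by 5.0 with 68 counts in C57BL/6J. Slc5a10, a sodium-coupled sugar transporter, was at 109, 80.5 and 106 CPM in the 3 NZO/HlLtJ males, at 0.269 to 8.46 CPM in the females and at 0.279 to 0.651 CPM in C57BL/6J. It rose by 5.78 (SE 0.77, adjusted p = 1.78e-05, edgeR), and 1 female lay at the C57BL/6J level. Fev (-0.86) and Ppp1r1a (-0.94) fell.

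The machinery of granule release moved down at more genes than up. Of 25 exocytosis genes 14 fell and 4 rose, with a median of -0.37. Cplx1 (-1.95), a complexin that controls vesicle fusion, Cadps (-1.34), a priming factor, Ppfia2 (-1.18), an active zone scaffold, and Rab3c (-1.08), a vesicle GTPase, fell most. Rab3d, which is also abundant in acinar cells, rose by 1.06, and Snap25, a core fusion protein, changed by -0.50. Without the TMM factors 18 fell and 1 rose.

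The hormones of the other endocrine cells were lower in NZO/HlLtJ. Sst, somatostatin, was at 1120, 1460 and 1590 CPM in NZO/HlLtJ and 2340, 3300 and 5230 CPM in C57BL/6J. The groups did not overlap, and the fitted level was 2.43-fold higher in C57BL/6J (log2 fold change -1.28, SE 0.14, adjusted p = 3.43e-06, edgeR). Gcg, glucagon, was at 9645, 11920 and 16920 CPM against 11700, 27370 and 61040 CPM and fell by 1.18 (SE 0.27, adjusted p = 0.00134, edgeR). The C57BL/6J spread was wide and the groups overlapped. Ppy, pancreatic polypeptide, fell by 0.97 (adjusted p = 0.0146, edgeR). Ghrl, ghrelin of the epsilon cell, was at 0.0111, 0.142 and 0.226 CPM against 1.26, 4.8 and 7.23 CPM. It fell by 5.16 (SE 0.51), on 66 counts over the 7 NZO/HlLtJ libraries.

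Of the 14 alpha cell genes 12 fell and 1 rose, with a median of -1.19, which was -1.36 in females and -0.89 in males. Dpp10, a potassium channel subunit, changed by -2.13 with no overlap. Ttr, transthyretin, which beta cells also express, rose by 0.61 (adjusted p = 0.0334, edgeR), a call lost in 12 of 25 alternatives. Of the 11 delta cell genes 6 fell and 1 rose, beside 31.6% lower and 32.1% higher over all genes. Ghsr, the ghrelin receptor of delta cells, fell by 1.42 and Ffar4, a fatty acid receptor, by 1.33, whereas the delta cell factor Hhex (-0.16) was not called and Pdyn, prodynorphin, rose by 1.68. Folr1, a folate receptor on the gamma and epsilon list, was at 0.142, 0.321 and 0.552 CPM against 14.2, 22.1 and 35.8 CPM (log2 fold change -6.15, SE 0.28, adjusted p = 1.2e-09, edgeR). The summed CPM of the alpha list was 12700 to 19000 in NZO/HlLtJ and 14400 to 65300 in C57BL/6J.

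Markers of supporting cells were higher in NZO/HlLtJ. All 15 pericyte genes rose, with a median of 1.87, and at 12 of them the strains did not overlap (12.3% of all genes). Rgs5, a defining pericyte gene, was at 423, 660 and 776 CPM against 131, 159 and 179 CPM (log2 fold change 2.04, SE 0.11, adjusted p = 3.76e-09, edgeR). Acta2, smooth muscle actin, rose by 2.35, without overlap. All 18 endothelial genes rose, by a median of 0.94, with Pecam1 at 1.02 and Cdh5 at 1.06. The summed CPM was 752 to 1480 for pericyte genes in NZO/HlLtJ against 268 to 398 in C57BL/6J, and 1310 to 2300 against 782 to 1110 for endothelial genes.

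Of 22 fibroblast and matrix genes 21 rose and none fell, with a median of 2.36, and 14 did not overlap (12.3% of all genes). Col1a1, a chain of type I collagen, was at 99.8, 230 and 791 CPM against 17.5, 34.2 and 75.9 CPM (log2 fold change 2.83, SE 0.42, adjusted p = 4.87e-05, edgeR). Fn1, fibronectin, rose by 3.68 (SE 0.34, adjusted p = 5.98e-07, edgeR), the matrix protein Postn by 3.59 and the protease inhibitor Timp1 by 3.43. The summed CPM of this list was 2850 to 5780 in NZO/HlLtJ males, 1050 to 1950 in NZO/HlLtJ females and 289 to 741 in C57BL/6J. The lowest NZO/HlLtJ library thus lay above the highest C57BL/6J library, and the males lay above the females.

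Macrophage genes were higher throughout. All 25 rose, by a median of 1.93 (1.11 in females, 2.94 in males). Siglec1, a sialic acid receptor of tissue macrophages, was at 1.86, 5.49 and 44.8 CPM in NZO/HlLtJ and at 0.284, 0.536 and 1.26 CPM in C57BL/6J. It rose by 4.12 (SE 0.5, adjusted p = 6.93e-06, edgeR) without overlap. Mrc1, the mannose receptor, rose by 3.10, the defining markers Cd68 by 2.07 and Adgre1 by 1.64. The summed CPM was 960 to 1740 in NZO/HlLtJ males, 256 to 431 in the females and 127 to 218 in C57BL/6J. Of 24 T, B and plasma cell genes 21 rose, with a median of 2.44, but no member separated the strains. Cd3e, a T cell receptor subunit, was at 0.0629, 1.09 and 3.6 CPM against 0, 0.0393 and 1.4 CPM. With the acinar level as a covariate 9 of these lymphocyte and plasma cell genes rose.

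Duct and acinar genes mark the exocrine pancreas. Of 19 duct genes 13 rose and 2 fell, with a median of 1.17. Car2, a carbonic anhydrase, was at 1.34, 4.3 and 33.5 CPM against 0.362, 0.488 and 0.83 CPM and rose by 3.90 (SE 0.45, adjusted p = 5.06e-06, edgeR). Cftr, the chloride channel, rose by 3.45, and Krt19 by 2.38 with overlapping groups. Of 35 acinar genes 8 rose, a share below the 32.1% of all genes, and none fell, at a median of 0.86, and the defining markers Cpa1 (0.55), Cela1 (0.55), Pnlip (0.63) and Ctrb1 (1.2) were not called. Ctrc, chymotrypsin C, was at 657, 1630 and 3800 CPM against 2.43, 10.5 and 222 CPM (log2 fold change 6.10, SE 0.83, adjusted p = 2.2e-05, edgeR). Ctrc and the trypsinogens Prss1 (8.36) and Prss3 (6.03) stood far above the rest of the list, and as near-identical trypsinogen copies can share reads, values of single Prss and Try members are uncertain. With limma-trend 14 acinar genes rose. Of 11 Schwann cell genes 7 rose, of which 2 did with the acinar covariate. Of 10 listed adipocyte genes 3 were tested, and red blood cell genes had 1 call in each direction.

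**Figure D2:**
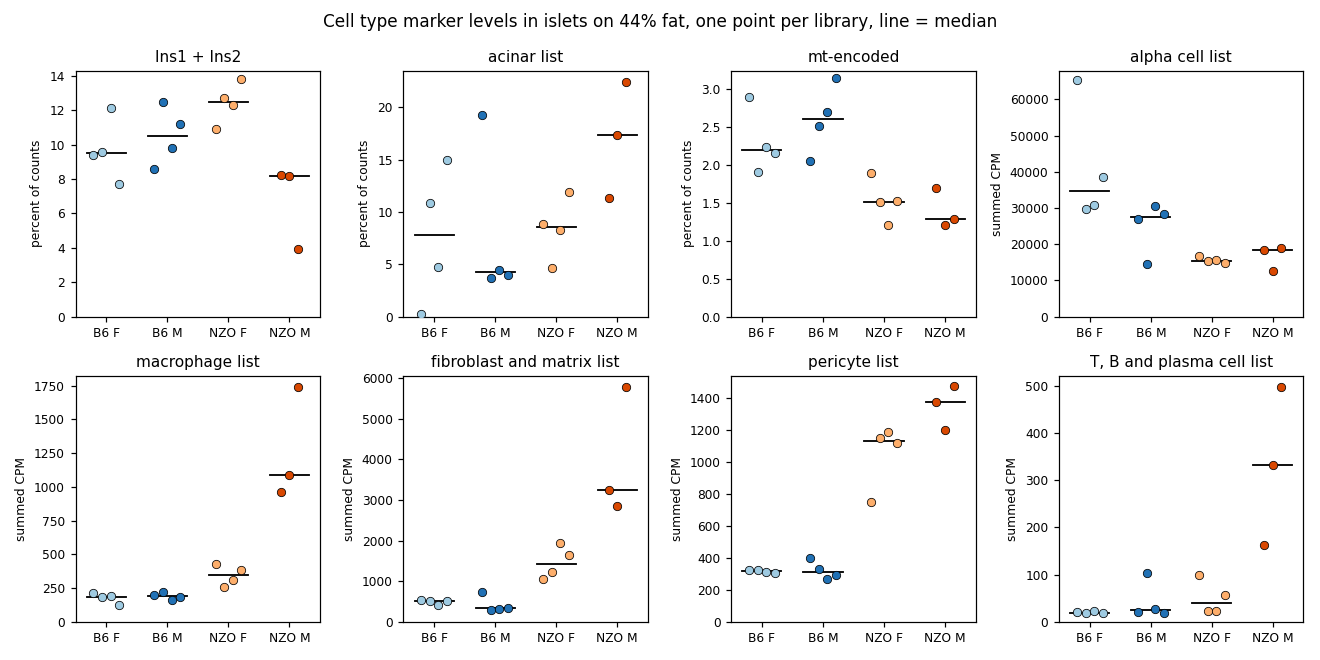
Share of all counts for the insulin genes, the acinar list and mitochondrially encoded genes, and summed CPM of 5 cell marker lists, on linear axes from 0, with 1 point per library and a line at the group median; B6 is C57BL/6J, NZO is NZO/HlLtJ, F female and M male. Fibroblast, pericyte and macrophage sums of every NZO/HlLtJ library exceed every C57BL/6J library, and acinar shares overlap between the strains.

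Interferons are antiviral cytokines, and their receptors activate STAT and IRF factors that bind interferon-stimulated response elements (ISRE) in promoters of many genes. Of 46 interferon response genes 42 rose, 1 fell and 3 were not called, with a median of 1.61 (0.79 in females, 2.69 in males). Isg15, a ubiquitin-like modifier, was at 1.1, 3.4 and 11.4 CPM in NZO/HlLtJ and 0.459, 0.702 and 0.815 CPM in C57BL/6J. It rose by 2.80 (SE 0.43, adjusted p = 5.32e-05, edgeR) without overlap. Gbp2, an interferon-induced GTPase, rose by 3.23, Ifit3, an antiviral protein that binds other IFIT proteins, by 1.60 (adjusted p = 0.0135, edgeR), and Irf7, a master factor of the type I response, by 2.27. Rsad2 (-0.13), Ifih1 (0.37) and Oas1b (0.65) were not called. The macrophage sum also rose, as given above, and its part in the interferon genes was not tested.

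Promoters of these genes were searched for the core letters of the ISRE, GAAA followed by any 2 bases and GAAA again, on both strands, with overlapping matches counted (a match on the opposite strand reads TTTC, any 2 bases and TTTC). The window ran from 250 bases before to 50 bases after the RefSeq gene start (GRCm38.p6, the C57BL/6J reference, so NZO/HlLtJ variants are not seen). Of the 46 genes 32 had a promoter in the table, and 21 of these (65.6%) held a match. Among all genes tested 479 of 12635 with a promoter (3.79%) held one, and among all windows 1131 of 32851 (3.44%). Of the 21 interferon genes with a match 19 were called higher, with a median log2 fold change of 1.60, and of the 11 without a match 11 were, with a median of 1.52. With nearly all of these genes called higher, the counts could not show whether presence of the letters separates called members of this list. The 3 promoters below are shown as examples with a match on either strand, with the matching letters in capitals. They are Isg15 at chr4:156200769-156201068 on the minus strand, with 3 overlapping matches, Ifit3 at chr19:34583279-34583578 on the plus strand, with 2, and Gbp2 at chr3:142620413-142620712 on the plus strand, with 1.
Isg15: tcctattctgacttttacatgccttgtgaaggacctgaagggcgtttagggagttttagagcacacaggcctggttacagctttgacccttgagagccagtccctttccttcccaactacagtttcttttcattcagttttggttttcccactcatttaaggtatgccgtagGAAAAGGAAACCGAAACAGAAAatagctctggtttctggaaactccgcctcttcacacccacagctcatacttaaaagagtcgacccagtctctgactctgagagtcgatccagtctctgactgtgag
Ifit3: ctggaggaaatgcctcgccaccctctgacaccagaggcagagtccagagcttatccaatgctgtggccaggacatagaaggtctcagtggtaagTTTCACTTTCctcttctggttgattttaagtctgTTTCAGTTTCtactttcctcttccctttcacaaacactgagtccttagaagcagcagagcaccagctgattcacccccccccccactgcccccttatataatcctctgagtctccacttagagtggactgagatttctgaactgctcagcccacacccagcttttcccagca
Gbp2: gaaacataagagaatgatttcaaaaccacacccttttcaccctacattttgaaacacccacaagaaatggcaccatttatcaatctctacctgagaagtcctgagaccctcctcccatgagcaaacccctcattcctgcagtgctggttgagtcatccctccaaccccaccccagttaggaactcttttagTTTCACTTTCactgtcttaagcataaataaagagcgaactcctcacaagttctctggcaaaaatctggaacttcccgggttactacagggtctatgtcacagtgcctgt

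The antiviral GTPase pair Mx1 and Mx2 moved in opposite directions. Mx1 was at 15.2, 47.1 and 77 CPM in NZO/HlLtJ and 0.233, 0.626 and 1.5 CPM in C57BL/6J, 61.8-fold apart in the fitted level (log2 fold change 5.95, SE 0.46, adjusted p = 1.33e-07, edgeR). Common laboratory strains carry a defective Mx1 allele. Mx2 was at 0.124, 0.378 and 0.784 CPM against 1.07, 1.52 and 2.33 CPM and was the member that fell (log2 fold change -1.90, SE 0.32, adjusted p = 0.000122, edgeR). Neither gene overlapped between the strains.

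Genes of antigen presentation rose. Of 20 MHC class I and immunoproteasome genes 16 rose and 1 fell, with a median of 1.00. B2m, the light chain of class I molecules, was at 98.5, 456 and 1000 CPM against 59.2, 72.2 and 85.8 CPM (log2 fold change 2.37, SE 0.38, adjusted p = 8.49e-05, edgeR). Nlrc5, the class I transactivator, rose by 3.11, and the immunoproteasome subunit Psmb8 by 1.86. H2-K1 fell by 0.89 (adjusted p = 0.0373, edgeR). The strains carry different H2 haplotypes, and reads of H2 genes that differ from the reference may be lost or assigned to a neighbour, so single H2 values are uncertain. Of 17 class I genes with a promoter 5 (29.4%) held the ISRE letters. Of 13 class II genes 11 rose, with a median of 1.58, among them the transactivator Ciita (2.47) and the invariant chain Cd74 (1.58). H2-Ea-ps, which is a non-expressed class II copy in C57BL/6J, was at 17.7, 53.8 and 198 CPM in NZO/HlLtJ and had 22 counts in C57BL/6J, of which 20 lay in the female replicate 2 with NZO/HlLtJ transcripts.

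Complement genes rose in 18 of 19 cases, with a median of 2.01, and C4a (0.09) was not called. C3, the central complement protein, was at 59.5, 184 and 1260 CPM against 13.3, 22.7 and 66.6 CPM (log2 fold change 3.48, SE 0.4, adjusted p = 4.87e-06, edgeR). The groups overlapped between the lowest NZO/HlLtJ and the highest C57BL/6J library. Of 23 chemokine, cytokine and acute phase genes 15 rose and none fell. Lcn2, lipocalin 2, an iron-binding acute phase protein, was at 9.34, 24.8 and 120 CPM against 0.0437, 0.349 and 1.85 CPM, without overlap (log2 fold change 6.33, SE 0.55, adjusted p = 3.84e-07, edgeR). The monocyte chemokine Ccl8 rose by 6.31, the interferon-induced chemokine Cxcl9 by 5.89 and the interleukin-1 receptor antagonist Il1rn by 5.71. Il1b (0.53), Il6 (2.19) and Nos2 (0.66) were not called. Of 8 tested genes of the Ifi200 family of DNA sensors 4 rose, among them Aim2 (2.13), and Mndal fell, with 17 counts over the NZO/HlLtJ libraries of which 13 lay in male replicate 3.

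**Figure D3:**
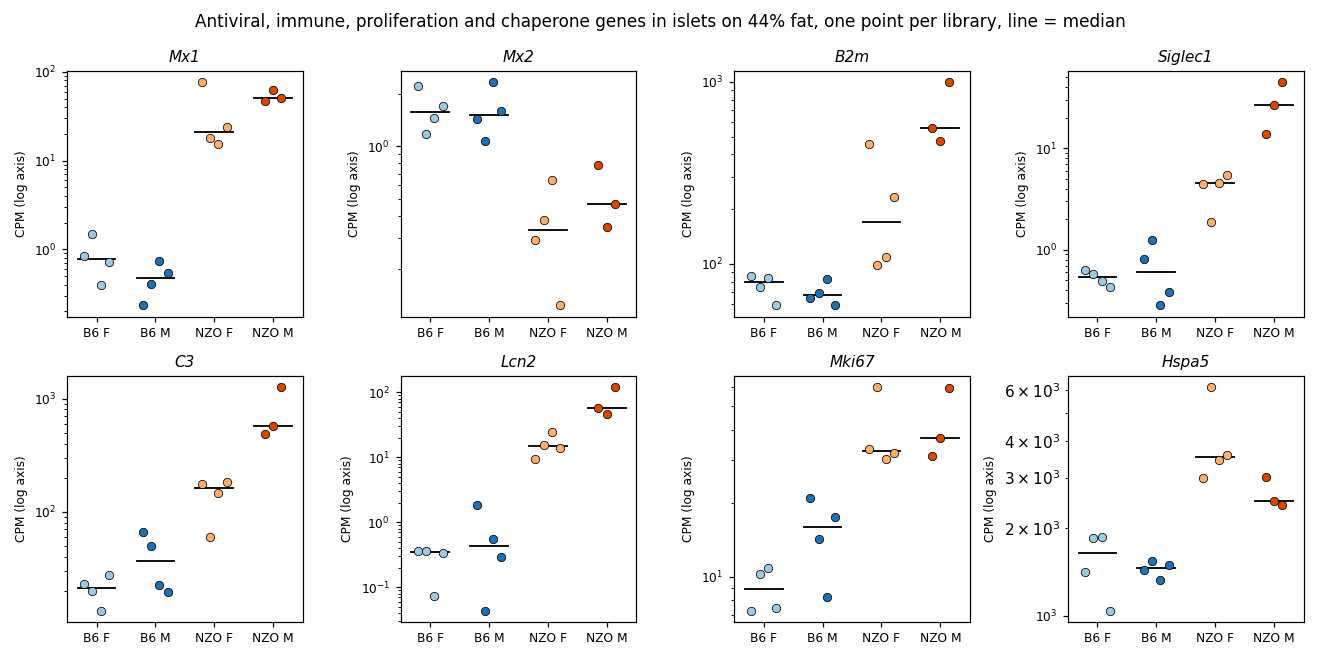
Levels of 8 antiviral, immune, proliferation and chaperone genes in CPM on log axes, with 1 point per library and a line at the group median; B6 is C57BL/6J, NZO is NZO/HlLtJ, F female and M male. Mx1 lies higher and Mx2 lower in every NZO/HlLtJ library, Siglec1 is highest in the NZO/HlLtJ males (13.7, 26.5 and 44.8 CPM), and Mki67 and Hspa5 lie above every C57BL/6J library in both sexes.

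Proliferation genes were higher in NZO/HlLtJ islets of both sexes. All 25 mitosis genes rose, with a median of 1.5 (1.62 in females, 1.43 in males), and 20 of them did not overlap (12.3% of all genes). Mki67, the proliferation marker Ki-67, was at 30.2, 33.3 and 59.7 CPM against 7.26, 10.6 and 20.9 CPM (log2 fold change 1.82, SE 0.23, adjusted p = 1.08e-05, edgeR). Birc5, or survivin, rose by 2.21 and Cdc20, an activator of the anaphase-promoting complex, by 2.19. Of 29 DNA replication genes 27 rose, with a median of 0.90, and 22 did not overlap. Cdc6, which loads the replicative helicase, was at 2.66, 2.96 and 5.32 CPM against 0.244, 0.584 and 0.989 CPM and rose by 2.50, and the helicase subunit Mcm5 rose by 1.90. Of 14 D cyclins, CDKs and CDK inhibitors 4 rose and 2 fell, beside 32.1% and 31.6% of all genes. Cdk6 (1.5), Cdk2 (1.05), the inhibitor Cdkn1a (0.85) and Ccnd3 (0.47) rose, while Ccnd2 (-0.43) and Cdk4 (-0.12) were not called. Which cells held these transcripts cannot be read from bulk RNA.

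Genes of protein folding in the endoplasmic reticulum rose at 20 of 25, with a median of 0.82 and none lower. Hspa5, the chaperone BiP, was at 2420, 3020 and 6160 CPM against 1040, 1460 and 1870 CPM (log2 fold change 1.15, SE 0.18, adjusted p = 7.44e-05, edgeR). Derl3, which helps export misfolded proteins for degradation, was at 39.4, 60 and 99.6 CPM against 4.71, 12.6 and 22.2 CPM and rose by 2.29 (SE 0.28, adjusted p = 9.45e-06, edgeR), and the folding factor Creld2 rose by 2.11. Acinar cells also express Derl3 at a high level, and the median acinar share was highest in NZO/HlLtJ males (shares by sex are given further on). Derl3 kept its call in all 25 alternatives, the acinar covariate among them, at a log2 fold change of at least 1.87. The part of acinar cells was not tested beyond this covariate. The sensors and factors of the stress response were not called, with Xbp1 at 0.16, Atf6 at 0.02 and Ern1 at -0.16. Of 22 genes of the ATF4 and CHOP branch 8 rose and 2 fell, with a median of 0.25, and the share that rose was near the 32.1% of all genes. With the acinar covariate 6 rose and 1 fell. Gdf15 (1.89), Slc7a11 (1.80) and Fgf21 (1.60) rose, and Atf4 (-0.13), Ddit3 (-0.13), which encodes CHOP, and Trib3 (-0.19) were not called. Fgf21 lost its call in 6 of 25 alternatives, the acinar covariate among them, with log2 fold changes down to 0.26. Of 32 cytosolic ribosomal protein genes 31 rose, by a median of 0.56.

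Nuclear and mitochondrial genes of oxidative phosphorylation moved in opposite directions. Of 32 nuclear genes 27 rose, with a median of 0.38, and 1 fell, while all 13 mitochondrially encoded transcripts fell, by a median of -0.67. mt-Nd2, a subunit of complex I, was at 378, 438 and 548 CPM against 945, 1050 and 1290 CPM (log2 fold change -1.27, SE 0.11, adjusted p = 1.92e-07, edgeR), with no overlap. With library totals alone 15 nuclear genes rose and 2 fell, and with the acinar covariate 8 mitochondrial transcripts fell. Mitochondrial transcripts took 1.21 to 1.89% of the counts in NZO/HlLtJ and 1.9 to 3.14% in C57BL/6J. The nuclear-retained RNAs Malat1 (-1.04) and Neat1 (-1.10) fell too. RNA quality was not measured in the files used here, and its part was not tested.

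Glycolysis genes split, with 6 of 19 higher and 5 lower, near the shares of all genes (32.1% higher and 31.6% lower). With library totals alone 5 were higher and 9 lower, and with the acinar covariate 5 were higher and 3 lower. Pfkfb2, a regulator of glycolytic flux in beta cells, was at 31.7, 70.2 and 102 CPM against 104, 133 and 155 CPM and fell by 1.22, and Ldhb, lactate dehydrogenase B, fell by 1.34. Pfkfb3 (1.81) and Gapdh (1.08) rose. Of 15 targets of ChREBP 7 rose and 3 fell. Txnip, a glucose-induced inhibitor of thioredoxin, was at 222, 932 and 1480 CPM against 373, 440 and 556 CPM and rose by 0.91 (adjusted p = 0.00499, edgeR), with overlap. Of 23 antioxidant genes 16 rose, including Sod3 (2.47) and Cat (1.66), and Gpx3 (-1.32) was the largest of 3 falls. Nnt, the mitochondrial transhydrogenase of which C57BL/6J carries a truncated allele, was at 56.8, 77.4 and 113 CPM against 26.2, 30.4 and 32.9 CPM (log2 fold change 1.5, SE 0.14, adjusted p = 5.2e-07, edgeR).

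Lipid pathways showed no common direction. Cholesterol synthesis had 5 of 24 genes higher and 6 lower, fatty acid synthesis 8 of 19 higher and 4 lower, and fatty acid oxidation 12 of 28 higher and 4 lower. Over all genes 32.1% were higher and 31.6% lower. The desaturases Fads2 (1.71) and Scd1 (1.15) rose, and the coactivator Ppargc1a (-1.05) and the muscle-type carnitine transferase Cpt1b (-1.11) fell. Scd1 lost its call with the acinar covariate (adjusted p = 0.197, edgeR). Cpt1b averaged under 1 CPM in both strains. The clock list had 8 of 18 genes lower and 5 higher. The repressors Per3 (-1.59), Ciart (-1.13) and Nr1d2 (-1.12) fell, and Cry1 (0.73) and Arntl (0.31), which encodes BMAL1, rose. The sources used here do not give the time of day at collection.

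Growth and signalling genes were mixed as well, and their counts stand beside 32.1% higher and 31.6% lower over all genes. Of 16 insulin and IGF signalling genes 6 rose and 3 fell. The IGF-binding protein Igfbp5 rose by 2.09, and Irs1, an adaptor of the insulin receptor, fell by 0.89. Of 16 hypoxia genes 6 rose and 7 fell, with Car9 at 3.89 and Vegfa at -1.02. Of 17 immediate early genes 4 rose, led by Nr4a3 (1.74), and none fell. The serotonin and prolactin axis had 5 of 13 genes lower, led by the serotonin receptor Htr3a (-1.99), and 1 higher. Metallothionein Mt3 rose by 3.57, while Mt1 (-1.18) and Mt2 (-1.15) fell. Of 6 Reg genes, secreted proteins of the stressed pancreas, Reg3g rose by 3.31, and Reg2 fell by 3.41 (SE 0.83, adjusted p = 0.00232, edgeR) from 6.63, 365 and 1380 CPM in C57BL/6J to 13.1, 37.7 and 84.5 CPM. C57BL/6J libraries spanned the whole range at Reg2, so the groups overlapped.

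Some of the largest differences were close to presence or absence. Lefty1, a TGF-beta family antagonist, was at 5.06, 5.63 and 7.78 CPM in C57BL/6J and had 5 counts over the 7 NZO/HlLtJ libraries, of which 4 were at 0. H2-Q2 was at 46.6, 51.8 and 61.3 CPM against 0.0248, 0.0936 and 1 CPM, and 71 of its 116 NZO/HlLtJ counts lay in male replicate 3. Fold changes of Lefty1 and H2-Q2 are left out, and those of Cck, Gast and Ghrl above rest on few counts in the lower strain and depend on the prior count of the fit.

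Cldn11, a tight junction claudin, was at 66.1, 142 and 342 CPM in NZO/HlLtJ and 0.601, 1.13 and 1.75 CPM in C57BL/6J (log2 fold change 6.96, SE 0.37, adjusted p = 3.7e-09, edgeR). Csn3 (7.41), the casein gene, Tm4sf20 (6.59) and Ctse (6.40), cathepsin E, rose without overlap as well, and Olfm3 (-5.87), Akr1c12 (-4.39), an aldo-keto reductase, Kcng3 (-4.23), a potassium channel subunit, and Fggy (-4.00) fell. Paralogue pairs traded counts. Hist2h2aa1 was at 1.37, 2.61 and 3.5 CPM against 54.3, 64.5 and 71.8 CPM, whereas its copy Hist2h2aa2 was at 26.4, 46.5 and 61 CPM against 0.0105, 0.051 and 0.875 CPM. Hba-a1 rose by 7.51 while Hba-a2, its near-identical copy, fell by 0.70. The sources used here do not tell whether the alignment allowed for strain variants, so these pairs and other near-identical genes (-ps and -rs copies included) are uncertain.

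Among 21 genes with published strain variants or proposed at NZO loci, 11 rose and 4 fell, beside 32.1% and 31.6% of all genes. Lepr, the leptin receptor, was at 9.69, 16.6 and 38.2 CPM against 3.72, 5.34 and 7.99 CPM (log2 fold change 1.87, SE 0.24, adjusted p = 1.37e-05, edgeR), without overlap. Zfp69 (0.20) and Tbc1d1 (-0.18), both proposed as diabetes or obesity genes in NZO crosses, were not called. Pctp, a phosphatidylcholine transfer protein, fell by 0.91, and Abcg1, a sterol transporter, rose by 0.33. By chromosome 59.4% (chromosome 12) to 68.7% (chromosome 14) of the genes were called. Among windows of 5 Mb with at least 20 tested genes, the highest share of genes changed at least 8-fold lay on chromosome 6 from 40000001 to 45000000 (GRCm38), where 11 of 39 genes (28.2%) did, beside 461 higher and 220 lower of 19251 genes in all. It holds Prss1 and Prss3 with further trypsinogen-like genes, whose reads can be shared.

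The sexes differed in how far the strains stood apart. In females 8887 genes (46.2%) were called and in males 10812 (56.2%), and the test of the difference itself called 2177 genes (11.3%), 1348 (7%) with a more positive strain difference in males and 829 (4.31%) with a more negative one. Without NZO/HlLtJ male replicate 3, which has the lowest Ins1 and carries CAST/EiJ transcripts, 559 genes were called. The count was 957 without C57BL/6J male replicate 4, 1242 without NZO/HlLtJ female replicate 2, 1260 without C57BL/6J male replicate 2, 1275 without C57BL/6J female replicate 2 and 1438 without C57BL/6J female replicate 4. Acinar shares were 11.3 to 22.4% in NZO/HlLtJ males and 4.66 to 11.9% in the females, and the part of this difference in the results was not tested. With the acinar covariate 1838 genes were called. The NZO/HlLtJ females came from code series 76 and 89 and the males from 76 and 80. Sex and series could therefore not be fully told apart, and the tests by sex were not run with the series as a factor. With library totals alone the split was 2596 higher and 5443 lower in females, 4250 and 6271 in males, and 1119 positive and 314 negative for the test between the sexes.

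Beta cell maturity genes were further down in males. The strain difference was more negative in males at 11 of 24 genes of glucose sensing and maturity (6 without male replicate 3) and at 7 of 20 beta cell transcription factors (5 without it). Over all genes 4.31% were more negative in males. Trpm5 was lower by 1.27 in females and by 3.25 in males on the log2 scale, a difference of -1.98 (adjusted p = 0.00489, edgeR). Ucn3 differed by -1.78 between the sexes (adjusted p = 0.018, edgeR), Slc30a8 by -1.62, Gipr by -1.96 and Nkx6-1 by -1.32, and these calls held with any single library left out. Slc2a2 differed by -1.58 (adjusted p = 0.0168, edgeR), which gave an adjusted p of 0.0632 without NZO/HlLtJ male replicate 3. Mafa differed by -1.81 (adjusted p = 0.0334, edgeR, and 0.0854 without that library), since NZO/HlLtJ females held 65.7 to 155 CPM and males 19.8, 39.4 and 66 CPM beside 32 to 65.2 CPM in C57BL/6J.

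Macrophage, interferon and complement genes were further up in males. The strain difference was more positive in males at 19 of 25 macrophage genes (10 without NZO/HlLtJ male replicate 3), 29 of 46 interferon genes (15 without it), 14 of 19 complement genes (8 without it) and 16 of 25 repressed genes (6 without it). Over all genes 7% were more positive in males. Other immune lists did not share this, with 1 of 24 T, B and plasma cell genes and 2 of 23 chemokine, cytokine and acute phase genes more positive. C3ar1, the receptor of complement peptide C3a on macrophages, was at 12.4, 15.3 and 18.8 CPM in NZO/HlLtJ males, 3.05 to 4.52 CPM in the females and 1.52 to 2.16 CPM in C57BL/6J. Its strain difference was larger in males by 2.20 (adjusted p = 0.00224, edgeR). Siglec1 (2.43), Slc5a10 (3.79) and Lepr (1.33) also differed, and lost the call without male replicate 3. Pfkfb2 (-1.44) and Srl (-2.09), a sarcoplasmic reticulum protein that rose by 2.58 in females and by 0.49 in males, went the other way.

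**Figure D4:**
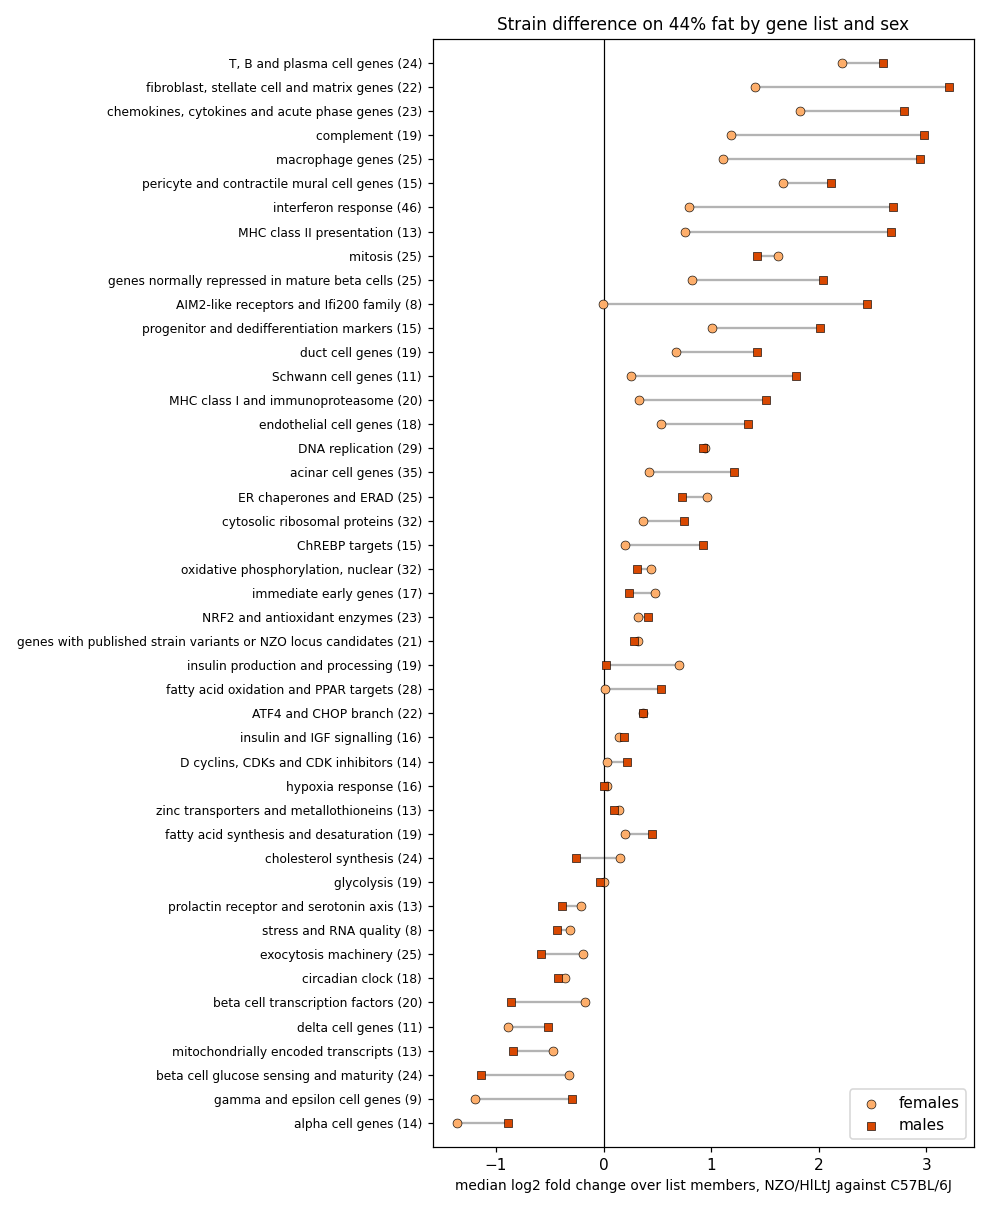
Median log2 fold change of NZO/HlLtJ against C57BL/6J on 44% fat over the tested members of 45 gene lists (number in parentheses), with circles for females and squares for males. Macrophage (1.11 and 2.94), interferon (0.79 and 2.69) and complement (1.18 and 2.98) medians lie further right in males, while mitosis (1.62 and 1.43) lies close in both sexes.

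The strain difference on 44% fat was set beside that on 10% fat in a model of 30 libraries and 19721 genes, with levels scaled over these libraries. On 10% fat 8488 genes (43%) differed between the strains, 4530 (23%) higher and 3958 (20.1%) lower in NZO/HlLtJ, and 13261 (67.2%) did on 44% fat, 6836 (34.7%) higher and 6425 (32.6%) lower. The difference between these differences was called at 3361 genes (17%), 2065 (10.5%) more positive on 44% fat and 1296 (6.57%) more negative. Without NZO/HlLtJ male replicate 3 on 44% fat 2164 genes were called. With library totals alone 926 were positive and 2241 negative. A called gene may have moved with diet in either strain. The acinar list had a median strain difference of -0.75 on 10% fat and 0.92 on 44% fat. The difference between diets was called at 3 of its 35 genes. The test between diets was not run with the acinar level as a covariate, so the part of acinar content in it was not tested.

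The macrophage, matrix and repressed genes grew apart on the fat diet. On 10% fat 5 of 25 macrophage genes were higher in NZO/HlLtJ, near the 23% of all genes, with a median of 0.29, and the difference between diets was called at 22 (21 without NZO/HlLtJ male replicate 3). It was called at 21 of 22 fibroblast genes (14 without it), 21 of 25 repressed genes (15 without it), 31 of 46 interferon genes (22 without it, 12 with library totals alone) and 10 of 13 class II genes (8 without it). Over all genes 10.5% were more positive on 44% fat. C3ar1 averaged 3.36 ± 1.48 CPM in NZO/HlLtJ males on 10% fat and 16 ± 3.36 CPM on 44% fat (mean ± SD, n = 3 each), beside 1.55 ± 0.129 and 1.75 ± 0.203 CPM in C57BL/6J males (n = 4 each). The difference between diets was 1.93 on the log2 scale.

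Other strain differences stood on 10% fat already. Aldh1a3 was higher in NZO/HlLtJ by 4.98 on 10% fat, and Mx1 averaged 65.7 ± 12.3 CPM in NZO/HlLtJ females on 10% fat and 34 ± 29.8 CPM on 44% fat (SD, n = 4 each). Of 14 alpha cell genes 11 were lower on 10% fat, at a median of -0.92, and of 32 nuclear oxidative phosphorylation genes 27 were higher, at 0.31. Proliferation genes were higher on 10% fat too, but stood further apart on 44% fat. Mitosis genes were higher on 10% fat at 19 of 25, with a median of 0.82 (1.53 on 44% fat). The difference between diets was called at 7 of them, all more positive, beside 10.5% of all genes. DNA replication genes were higher on 10% fat at 19 of 29, with a median of 0.36 (0.92 on 44% fat). For these the difference between diets was called at 18, all more positive.

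Beta cell genes moved between these patterns. Slc2a2 averaged 558 ± 71.6 CPM in NZO/HlLtJ females on 10% fat and 403 ± 133 CPM on 44% fat (n = 4 each), and 456 ± 162 and 150 ± 49.1 CPM in NZO/HlLtJ males (n = 3 each), while C57BL/6J means lay between 746 and 829 CPM. Its difference between diets was -1.0 (adjusted p = 0.00855, edgeR). The test was called at 10 of 24 genes of glucose sensing (9 without NZO/HlLtJ male replicate 3) and 8 of 20 beta cell transcription factors (6 without it), all towards lower levels. Over all genes 6.57% were more negative on 44% fat. Slc5a10 (3.96, adjusted p = 0.022, edgeR), Chgb (0.92, adjusted p = 0.0228, edgeR) and Txnip (0.97, adjusted p = 0.0246, edgeR) grew apart upwards.

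**Figure D5:**
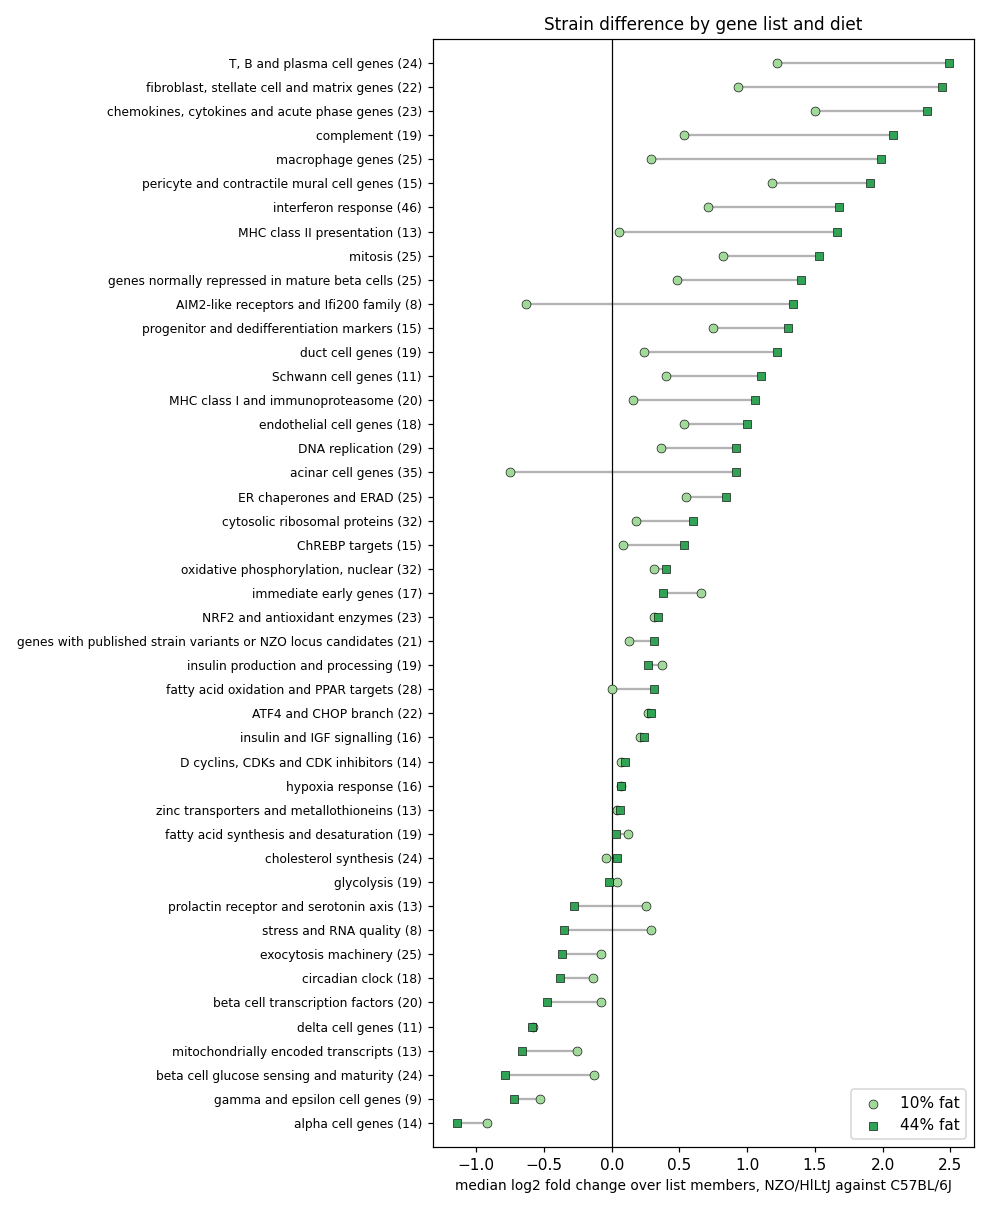
Median log2 fold change of NZO/HlLtJ against C57BL/6J over the tested members of 45 gene lists (number in parentheses) on 10% fat (circles) and 44% fat (squares), as means over the sexes in the model of 30 libraries. The macrophage list moves from 0.29 on 10% fat to the right on 44% fat, and the alpha list lies left of 0 on both diets.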

How the data were processed

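Bulk RNA of islets, isolated with the RNeasy Micro kit, received an ERCC spike-in before polyadenylated RNA was made into libraries (KAPA mRNA HyperPrep), per the labels' protocols. Sequencing on a NovaSeq gave paired reads of 150 bp and aimed at 100 M pairs per library. Spike-in reads are not analysed here. The authors deposited estimated counts per gene that are not normalised, for 22904 genes in 45 libraries, of which 23.6% of the values are not whole. No gene in that matrix is at 0 in more than 22 libraries, so genes outside it were not analysed here. GRCm38 and DESeq2 are named in the submitters' processing notes without their roles. The aligner, the counting program and its use of strand were not stated in the sources used here, so antisense and overlapping genes are uncertain. The deposited annotation gave symbols and coordinates (GRCm38), and 41 of its symbols are repeated. The authors' matrix of variance-stabilised values was not used.

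Estimated counts were rounded to whole numbers, filtered with filterByExpr over strain and sex and scaled with TMM. The test was the robust quasi-likelihood F test of edgeR 4.0.16 (limma 3.58.1, R 4.3.3), with strain as the tested term and sex as a block, and Benjamini-Hochberg adjustment over all genes tested at 0.05. Sex-wise contrasts came from a model of the 4 strain and sex groups, and the contrasts between diets from a model of 8 groups of strain, sex and diet. Every adjusted p in the text comes from edgeR. Log2 fold changes are NZO/HlLtJ against C57BL/6J, SE are standard errors derived from the F statistic, and levels are CPM. Replicate numbers only name libraries and do not pair them, and at most 0.28% of the values of any replicate pair were equal.

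The comparison, the 48 gene lists and the naming rule were chosen with earlier results of these data known. Lists are described by counts and medians with no test of their own. The rule named the 12 genes per direction with the largest change among non-overlapping genes of at least 5 CPM, up to 4 called genes per list and direction of at least 1 CPM, hormones, published strain variants, the 6 genes per direction with the smallest p of each test of a difference, and Aldh1a3, Cck, Gast, Ucn3, Slc2a2, Mafa, Txnip and Nnt. Of these the text gives a selection, and other list members it names were chosen after their values were seen. Of 923 listed symbols 894 are in the matrix. On simulated counts for the strain comparison (18893 genes) the test recovered 68 of 99 genes changed 2-fold and 89 of 100 changed 4-fold, and called 5 unchanged genes. Only these few genes were changed in the simulation, whereas 63.7% of genes were called in the data. The simulated figures therefore do not give the power or the error rate of the real calls. Alternatives were RLE factors, library totals alone, no filter, DESeq2 1.42.0, limma-trend (prior count 2), all libraries in 1 model, the code series, the acinar level or no sex term as covariates, and leaving libraries out. Promoters came from RefSeq (GRCm38.p6).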

Additional observations from a re-analysis of the deposited data

Results flagged for a closer look

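Among 231 values tested for a library far from the others of its strain and sex, 22 stood apart. Only groups of 4 libraries were tested, so the 3 NZO/HlLtJ males, replicate 3 among them, were not examined in this way. Chance gives about 1 such value in 20 groups. C57BL/6J male replicate 1 held the highest levels of its group of 4 for several stromal and metabolic genes. Its Col1a1 was at 75.9 CPM (17.5 to 26.2 in the other 3), Fn1 at 17.4 CPM (4.1 to 5.47), Ldha at 19.7 CPM (11.5 to 12.9) and Lepr at 7.99 CPM (3.72 to 4.41). Its acinar share was 19.3% (3.68 to 4.45%) and its fibroblast sum 741 CPM (289 to 347). C57BL/6J male replicate 2 held 222 CPM of Ctrc (6.28 to 34.9), 35 CPM of Prss1 (0.141 to 0.83), a T, B and plasma cell sum of 103 CPM (19 to 27.7) and a red blood cell sum of 253 CPM (130 to 144). C57BL/6J male replicate 3 held 1.64 CPM of Cxcl9 (0.0765 to 0.247).

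In the C57BL/6J females, replicate 2, which carries NZO/HlLtJ transcripts, held 0.24 CPM of H2-Ea-ps (0 to 0.0174), 0.551 CPM of Hba-a1 (0.0784 to 0.114) and a red blood cell sum of 224 CPM (100 to 121). Replicate 1 held 2.36 CPM of Prss1 (0.114 to 0.443), and replicate 3 was low for Car2 at 0.362 CPM (0.479 to 0.502) and Lcn2 at 0.0724 CPM (0.338 to 0.366). In the NZO/HlLtJ females, replicate 1 held 77 CPM of Mx1 (15.2 to 23.9), and was low for Rgs5 at 423 CPM (641 to 685) and for the pericyte sum at 752 CPM (1120 to 1190). Replicate 2 held 59.7 CPM of Mki67 (30.2 to 33.3), and replicate 4 held 66.6 CPM of Nnt (110 to 113).

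The test of the difference between the sexes (edgeR quasi-likelihood, adjusted p under 0.05) was passed by 17 of 64 genes examined library by library. On the log2 scale the strain difference was more negative in males at Trpm5 (-1.98), Akr1c12 (-1.05), Slc30a8 (-1.62), Srl (-2.09), Pfkfb2 (-1.44), Slc2a2 (-1.58), Gipr (-1.96), Nkx6-1 (-1.32), Ucn3 (-1.78) and Mafa (-1.81). It was more positive in males at Parp3 (1.52), Siglec1 (2.43), Car2 (2.21), C3ar1 (2.20), Slc5a10 (3.79), Lepr (1.33) and Ldha (1.51).

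The test of the difference between diets (edgeR quasi-likelihood, adjusted p under 0.05) was passed by 30 of these genes. The strain difference was more negative on 44% fat than on 10% fat at Folr1 (-0.83), Mlxipl (-0.84), Trpm5 (-1.23), Akr1c12 (-0.73), Slc30a8 (-0.84), Srl (-1.15), Pfkfb2 (-0.94), Slc2a2 (-1.0), Gipr (-1.17), Nkx6-1 (-0.87), Isl1 (-0.72) and Ucn3 (-1.07). It was more positive at Col1a1 (1.86), Derl3 (1.39), Gast (2.20), Parp3 (1.52), C3 (1.90), Fn1 (1.51), Rgs5 (0.48), Mrc1 (2.50), Siglec1 (1.94), Chgb (0.92), Car2 (2.35), Cldn11 (1.66), Txnip (0.97), C3ar1 (1.93), Slc5a10 (3.96), B2m (1.08), Ldha (1.17) and Nlrc5 (1.74). These values are differences of log2 fold changes.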

How the results depend on the processing

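The count of 12271 called genes ranged from 9458 (acinar level as a covariate) to 13477 (all 45 libraries in 1 model) over the alternatives, with 12717 by DESeq2 and 12372 by limma-trend, and from 11499 to 12165 when 1 library was left out. Library totals alone kept the count (12210) and shifted the split to 35.7% higher where TMM gave 50.4%. In females the count was 7479 to 8619 and in males 9490 to 10833 with 1 library left out. The test of males against females moved from 2177 calls to 1433 with library totals alone, and to between 559 and 2747 with 1 library left out. The test of 44% against 10% fat moved from 3361 to 2164 without NZO/HlLtJ male replicate 3, and lay between 2164 and 3959 over the libraries left out. The cause of these moves was not tested. Of 279 named genes called, 229 kept the call in every alternative tried, 50 lost it in at least 1, and 0 reversed. No paired analysis was possible because replicate numbers follow accession order and pair no libraries. The series of the sample codes (76, 80, 89), entered as a factor in the strain comparison, gave 11910 calls, and it was not entered in the tests by sex. Lymphocyte genes such as Cd3e and the epsilon cell gene Ghrl rest on few counts, and Reg2 spanned 6.63 to 1380 CPM among the C57BL/6J libraries. The 3 NZO/HlLtJ males limit the tests between sexes.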
